A study of Caenorhabditis elegans with 18 samples.

Results

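Sperm gene families were followed in whole L4 worms of the chromatin mutants met-2(ok2307) and lin-65(n3441) and of the wild-type strain N2. The families are the major sperm proteins (msp), the nematode-specific peptide family group D (nspd) and the sperm-specific family class P (ssp). Members were all gene models whose WormBase symbol starts with msp-, nspd- or ssp- and a number, whatever their level. The rule found 52 of the 20505 gene models, namely 30 msp, 10 nspd and 12 ssp genes. Of these, 49 passed the filter on low counts and were tested, namely 29 msp, 9 nspd and 11 ssp genes. The members that did not pass were msp-113, with 0 counts in all 18 libraries, nspd-8, with 3 counts in all, and the ssp-9 gene model T28H11.6, with 99 counts in all. A second gene model with the symbol ssp-9, E03H12.10, also had 99 counts in all and did pass. The annotation lists 53 genes that meet the rule, and msp-58 could not be matched to a gene model.

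Worms were fed from hatch at 20C on bacteria that carried either cco-1 RNAi or the empty vector, and collected at L4, the last larval stage. The 6 groups were met-2, lin-65 and N2, each fed cco-1 RNAi or empty vector, with 3 libraries per group. MET-2 is a histone H3 lysine 9 methyltransferase, LIN-65 is a nuclear protein that acts with it, and cco-1 (now cox-5B) encodes a subunit of cytochrome c oxidase. Nothing in the labels says whether the libraries of a group came from separate cultures, so the p-values measure the spread between these samples, which may be technical.

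A C. elegans hermaphrodite makes its sperm during L4 and then switches to oocytes for the rest of its life. Major sperm protein polymerises into the filaments that push the crawling, tail-less nematode sperm forward. The same protein is also released from sperm and acts as a hormone on oocytes and gonadal sheath cells, partly through the Eph receptor VAB-1. The ssp proteins share the fold of the major sperm protein, and the nspd proteins are short peptides found in nematodes only, whose RNA is made mainly where sperm are made.

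The families are built of short, similar genes that lie in groups. Of the 30 msp genes, 28 have a summed exon length of 384 bases, the nspd genes have one of 213 to 222 bases and the ssp genes one of 324 to 451 bases. The lengths of ssp-32, ssp-36 and ssp-37 (440, 406 and 451 bases) are not multiples of 3, so they are not coding lengths. The msp genes are on chromosomes II (13 genes) and IV (17 genes), and no member of any of the 3 families is on X. With neighbours counted as members at most 100 kb apart, 44 of the 52 members lie in 8 runs. The largest run holds 12 members on IV, among them msp-51, msp-53, msp-57, msp-65 and nspd-3. A second run on IV holds 11 members, among them msp-78, msp-81, msp-10, msp-56, nspd-2 and ssp-10. Reads from near-identical copies can be counted for the wrong copy or be left out, and how such reads were handled is not given in the sources used here, so the value of a single msp gene is less certain than the sum of the family.

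Totals ran from 5141303 to 19261705 counts per library, and 3 counts stood for 0.153 to 0.510 CPM. CPM are counts scaled to library size, here with library sizes adjusted by the trimmed mean of M-values. Levels are given per kilobase of summed exon length where genes are compared. The RNAi target cox-5B fell in all 3 strains, with log2 fold changes of -0.98 in met-2, -1.08 in lin-65 and -1.28 in N2 (adjusted p 0.0407, 0.0321 and 0.00827). RNA of met-2 was lower in met-2 than in N2 worms on empty vector (-1.10 ± 0.33 (SE), adjusted p 0.0195), and RNA of lin-65 in lin-65 than in N2 worms on empty vector had a log2 fold change of -0.96 ± 0.37 (SE) (adjusted p 0.329). The labels of lin-65 empty vector replicate 1 disagree, since its strain field reads N2 while its title and source read lin-65, and it was kept as lin-65. This library and met-2 cco-1 RNAi replicate 1 stood apart, with root mean square distances of 1.05 and 1.19 in log2 CPM to the other libraries of their group, against 0.457 to 0.952 for the other 16. Counts of members called that rest on either, and those of gene lists in met-2 against N2 on cco-1 RNAi, are given with and without both.

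RNA of each family was found in every group, and the sum over all members was lowest in both met-2 groups. It came to 0.117% of all counts in met-2 worms on cco-1 RNAi and 0.149% in those on empty vector. It came to 0.426% and 0.465% in lin-65 worms and to 0.302% and 0.392% in N2 worms, again on cco-1 RNAi first and on empty vector second.

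Among the msp genes, msp-78 had the highest mean level over the 18 libraries, 207 CPM or 540 CPM per kilobase, followed by msp-142 with 491 and msp-57 with 466 CPM per kilobase. These 3 genes held 28.2% of the msp sum, so the family's RNA was spread over many copies. The lowest msp gene that passed the filter was msp-32, with 2.81 CPM per kilobase. The nspd and ssp sums rested on fewer genes. In the nspd family, nspd-2 had 1039 CPM per kilobase, the highest of all members, and nspd-2, nspd-4 and nspd-1 held 61.4% of the sum. In the ssp family, ssp-10 (340 CPM per kilobase), ssp-34 (334) and ssp-35 (114) held 79.3% of the sum, and 3 ssp genes averaged under 1 CPM.

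**Figure D1:**
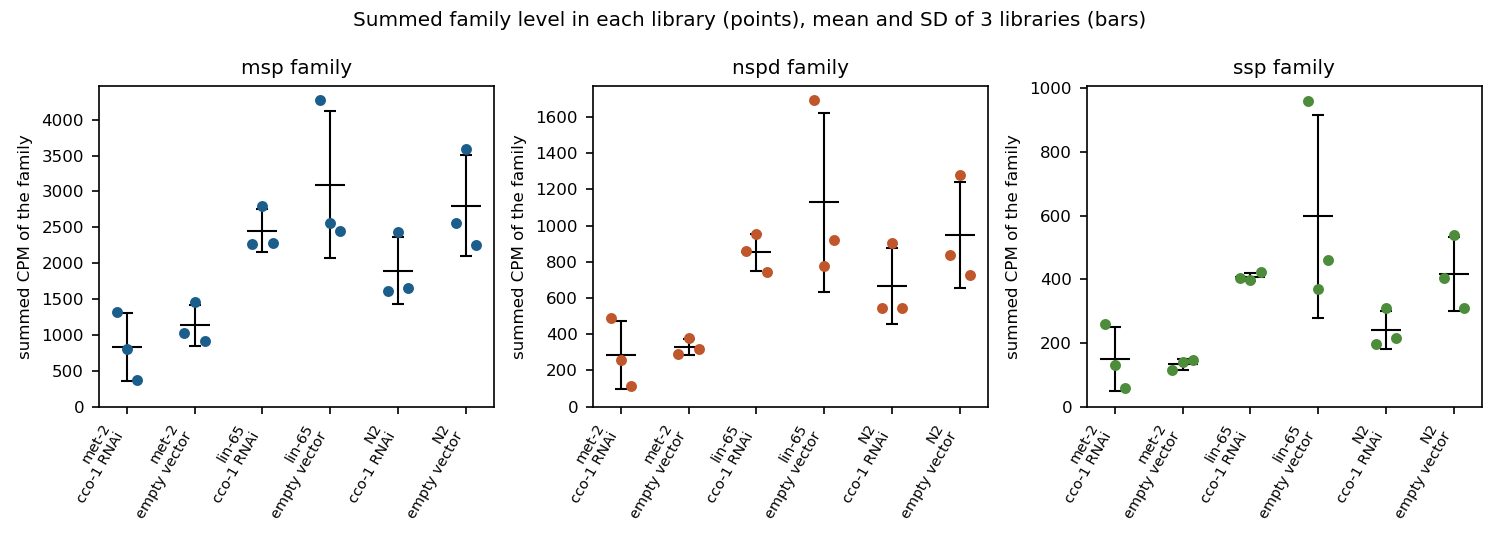
Summed level of each family in CPM (y axis, from 0) in the 6 groups (x axis); points are libraries, bars the mean and SD of 3 libraries. The libraries of met-2 on empty vector lie below all N2 libraries on empty vector in each family, and lin-65 empty vector replicate 1 is the highest library in each family.

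In met-2 worms on empty vector, RNA of all 3 families was lower than in N2 worms on empty vector. The msp sum was 1131 ± 283 CPM in met-2 and 2803 ± 700 CPM in N2, the nspd sum 329 ± 45.0 CPM in met-2 and 949 ± 292 CPM in N2, and the ssp sum 134 ± 17.2 CPM in met-2 and 418 ± 117 CPM in N2 (SD, n = 3 each). No met-2 library overlapped an N2 library in any of these sums, and the sum over all members was 2.61-fold lower in met-2. In whole worms, fewer sperm-forming cells and less RNA per cell cannot be told apart.

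By the quasi-likelihood test of edgeR, adjusted over all genes by Benjamini and Hochberg, 25 of the 49 members tested fell in met-2 on empty vector and 0 rose. That is 51%, beside 15.3% of all 15110 genes tested that fell. The 25 were 16 msp, 5 nspd and 4 ssp genes. All 49 members had a negative log2 fold change, with a median of -1.35 beside 0.04 over all genes, and 41 of them did not overlap between met-2 and N2 libraries, beside 26.3% of all genes that did so in this direction. Members moved together over the 18 libraries (median correlation of 0.911 to the median of the other members), and similar copies can share reads. Counts of members, here and in the other comparisons, are therefore not counts of independent observations. The number of calls depended on single libraries: it was 12 without N2 empty vector replicate 2, 13 without met-2 empty vector replicate 1 and 15 without met-2 empty vector replicate 3. The number over all genes dropped too. In those 3 fits 1263 of 15295, 1430 of 15292 and 1244 of 15436 genes tested fell, against 2310 of 15110 with all libraries. Without lin-65 empty vector replicate 1 and met-2 cco-1 RNAi replicate 1, neither of which is in the groups compared, 44 of 49 members fell, beside 23.7% of all 15317 genes tested in that fit. In a fit of the 6 libraries compared alone, 43 of 48 fell, beside 22.3%.

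Copies with very different levels fell. The most abundant msp gene, msp-78, had 151, 131 and 62.8 CPM in met-2 libraries and 225, 566 and 259 CPM in N2 libraries on empty vector (log2 fold change -1.61 ± 0.47 (SE), adjusted p 0.0171). The 3 met-2 libraries were below the 3 N2 libraries, and the N2 libraries were uneven. The call on msp-78 was lost without met-2 empty vector replicate 3 (adjusted p 0.0856) and without N2 empty vector replicate 2 (0.115), and over the libraries left out in turn its adjusted p ran from 0.00437 to 0.115.

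The most lowered msp genes by fold were msp-51 and msp-74. For msp-51 the levels were 23.3, 53.2 and 7.37 CPM in met-2 and 204, 137 and 140 CPM in N2 (-2.52 ± 0.65 (SE), adjusted p 0.00934). The low-level copy msp-74 had 0.938, 0.706 and 1.03 CPM in met-2 and 5.93, 5.35 and 3.49 CPM in N2 (-2.44 ± 0.52 (SE), adjusted p 0.00312). Both genes stayed past the threshold whichever library was left out. At the smaller end of the called msp genes, msp-50 had 43, 50.7 and 34.4 CPM in met-2 and 101, 106 and 87.1 CPM in N2 (-1.20 ± 0.31 (SE), adjusted p 0.00946), with no overlap between the groups. Without met-2 empty vector replicate 3 its adjusted p was 0.0595.

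The msp gene with the smallest difference was msp-57, which had 149, 276 and 44 CPM in met-2 and 203, 158 and 229 CPM in N2 on empty vector (-0.33 ± 0.58 (SE), adjusted p 0.685). Its met-2 libraries surrounded the N2 libraries, and without met-2 empty vector replicate 3 its log2 fold change was 0.12.

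All 9 nspd genes tested were separated between met-2 and N2 libraries on empty vector, and 5 of them fell by the test. The family's most abundant gene, nspd-2, had 70.3, 82.1 and 75.9 CPM in met-2 and 254, 459 and 255 CPM in N2 (-2.08 ± 0.40 (SE), adjusted p 0.00171). It lies in the same run on IV as msp-81 and ssp-10, which had log2 fold changes of -2.37 and -2.23. The smaller changes among the called genes were those of nspd-4 (63.5, 79.8 and 60.1 CPM in met-2, 180, 181 and 118 CPM in N2, -1.23, adjusted p 0.0304) and nspd-3 (14.6, 19.1 and 13 CPM in met-2, 21.2, 47.5 and 30 CPM in N2, -1.08 ± 0.38 (SE), adjusted p 0.0410). The call on nspd-4 was lost without any 1 of the 3 met-2 libraries and without N2 replicate 1 or 2 (adjusted p 0.0533 to 0.111). That on nspd-3 was lost without any 1 of the 3 met-2 libraries, without N2 replicate 2 or 3 and without lin-65 cco-1 RNAi replicate 3 (adjusted p 0.0506 to 0.211).

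Of the 11 ssp genes tested, ssp-10, ssp-34, ssp-35 and the ssp-9 gene model E03H12.10 fell in met-2 on empty vector. Those on ssp-34 and ssp-35 were lost without N2 replicate 2 or met-2 replicate 1, on ssp-34 also without met-2 replicate 3 and on ssp-35 also without met-2 replicate 2 (adjusted p 0.0713 to 0.0926). The smallest adjusted p of all members belonged to ssp-10, with 28.5, 38.2 and 37.3 CPM in met-2 and 178, 200 and 111 CPM in N2 (-2.23 ± 0.42 (SE), adjusted p 0.00141). The E03H12.10 copy of ssp-9 had the largest fitted change (-2.88 ± 0.85 (SE), adjusted p 0.0180), but its levels were at the limit of counting, 0.117, 0 and 0.171 CPM in met-2 and 0.296, 0.813 and 0.980 CPM in N2. A fold this close to 0 counts depends on the fit's prior count, and the call was lost without met-2 replicate 1 or 2 and without N2 replicate 2 or 3 (adjusted p 0.0530 to 0.0696).

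**Figure D2:**
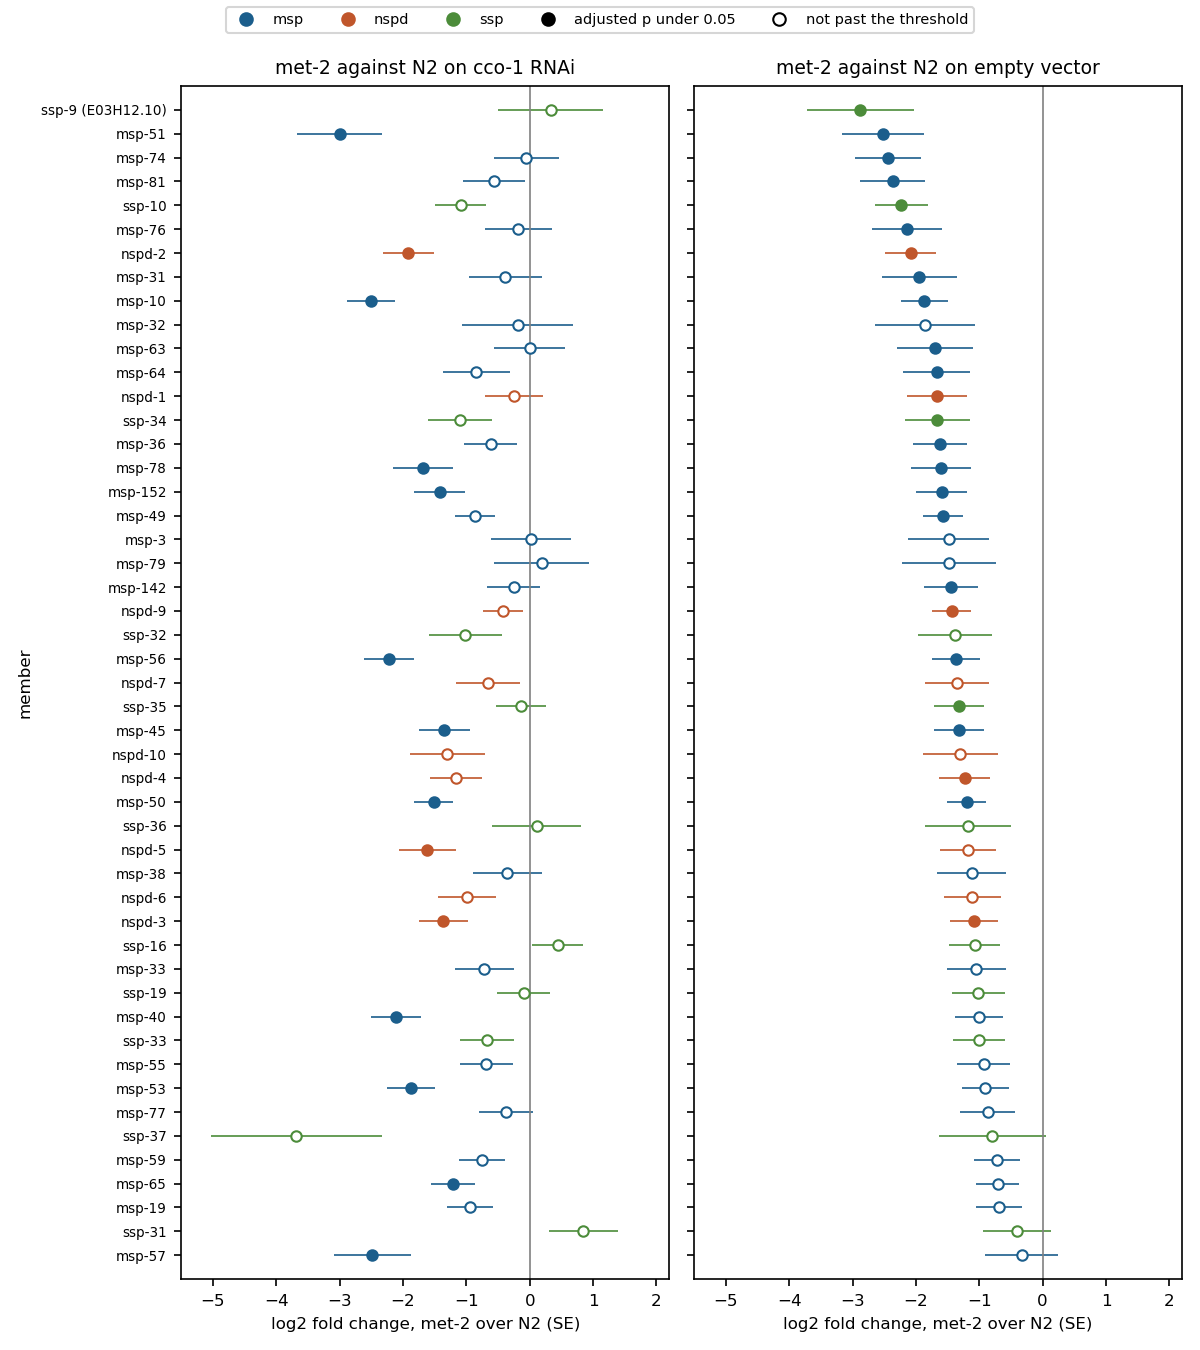
Log2 fold change of each of the 49 members tested (x axis, met-2 over N2, with SE) on cco-1 RNAi (left) and on empty vector (right), sorted by the value on empty vector; filled points passed an adjusted p of 0.05. On empty vector all points are left of 0, while on cco-1 RNAi 42 of 49 are left of 0 and the order differs.

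On cco-1 RNAi, members were again lower in met-2 than in N2, with a smaller number of calls. The msp sum was 832 ± 472 CPM in met-2 and 1897 ± 463 CPM in N2, the nspd sum 286 ± 189 CPM in met-2 and 666 ± 209 CPM in N2, and the ssp sum 150 ± 101 CPM in met-2 and 241 ± 60.5 CPM in N2 (SD, n = 3 each). The ssp libraries overlapped, while the msp and nspd libraries did not. The met-2 libraries were far apart, with sums over all members of 2066, 1189 and 547 CPM.

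By the same test, 14 of 49 members fell and 0 rose, which is 28.6% beside 9.59% of all genes that fell. They were 11 msp and 3 nspd genes, and no ssp gene passed in this fit of all 18 libraries. The median log2 fold change was -0.75 beside 0.03 over all genes, and 20 members did not overlap in the lower direction, beside 19.5% of all genes. Both met-2 cco-1 RNAi replicate 1 and N2 cco-1 RNAi replicate 2 moved the count, to 28 without that met-2 library and to 8 without that N2 library. Over all genes tested, 1676 of 15274 (11%) fell without that met-2 library and 859 of 15433 without that N2 library, against 1449 of 15110 with all libraries. Without both libraries that stood apart, 35 of 49 members fell, beside 15.8% of all genes, with a median of -1.41. Among the 35 were ssp-10 (-1.715, adjusted p 0.000829) and ssp-34 (-2.015, adjusted p 0.000999). A replicate block in the fit of all libraries also gave a call on ssp-10 (adjusted p 0.0295). By contrast ssp-35 was called in no alternative (adjusted p at least 0.0737). In a fit of the 6 libraries compared alone, 7 of 46 members fell, beside 4.12% of all genes.

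On cco-1 RNAi, msp-51 had 11.2, 7.9 and 6.55 CPM in met-2 and 49.5, 96.2 and 60.3 CPM in N2 (-2.997 ± 0.67 (SE), adjusted p 0.00481). The smallest adjusted p belonged to msp-10, with 7.64, 5.92 and 6.55 CPM in met-2 and 31.8, 52 and 30.9 CPM in N2 (-2.51 ± 0.38 (SE), adjusted p 0.000315). The gene with the smallest difference on empty vector, msp-57, had 38.5, 53.1 and 58.1 CPM in met-2 and 249, 346 and 243 CPM in N2 (-2.48 ± 0.61 (SE), adjusted p 0.00854). These 3 genes stayed past the threshold whichever library was left out, and their met-2 libraries were close to each other although the sum over all members was not.

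Smaller changes on cco-1 RNAi were those of nspd-3 (-1.36, adjusted p 0.0188), msp-45 (-1.35, adjusted p 0.0241) and msp-65 (-1.21, adjusted p 0.0192), all 3 of which were lost without replicate 3 of met-2 or replicate 2 of N2 on cco-1 RNAi (adjusted p 0.0725 to 0.119). Those on msp-45 and msp-65 were also lost without replicate 2 of met-2 on cco-1 RNAi (0.0820 and 0.0638). In the fit of the 6 libraries compared alone, nspd-3, msp-45, msp-65 and msp-78 were not called (adjusted p 0.0787, 0.0861, 0.0771 and 0.0827). Of the members called lower in met-2, 9 were called in both feeding conditions, which is 64.3% of the 14 on cco-1 RNAi and 36% of the 25 on empty vector. The same overlap was not counted over all genes, so these shares have no background and are not a result about the families. The 9 members were msp-10, msp-45, msp-50, msp-51, msp-56, msp-78, msp-152, nspd-2 and nspd-3. Among these, msp-78 was not called on cco-1 RNAi without replicate 2 of N2 (adjusted p 0.0843), and msp-56 was not called on empty vector without replicate 1 or 3 of met-2 (0.0530 and 0.0678). Called on cco-1 RNAi alone were msp-40, msp-53, msp-57, msp-65 and nspd-5. Passing the threshold on cco-1 RNAi alone is not a difference between foods, and the response in met-2 minus that in N2 had 0 members called. On empty vector nspd-5 was also lower in every met-2 library (40.8, 73.6 and 31.8 CPM) than in the N2 libraries (109, 134 and 87.7 CPM).

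**Figure D3:**
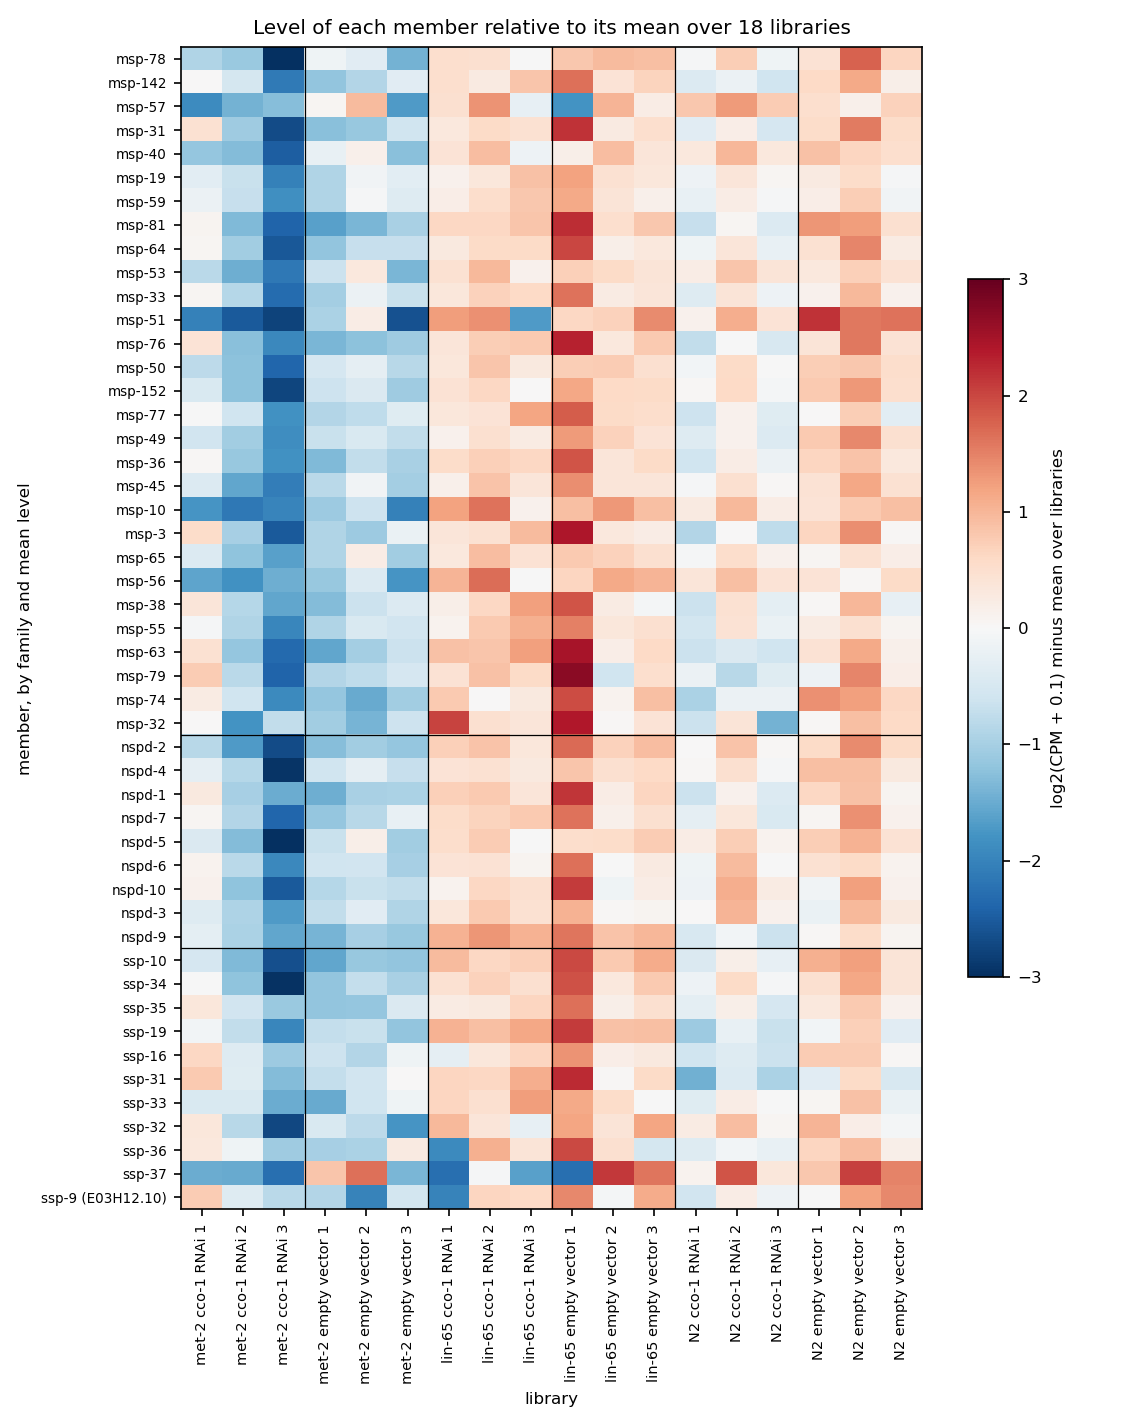
Level of each member tested (rows) in each of the 18 libraries (columns) as log2(CPM + 0.1) minus the member's mean over the libraries; red is above and blue below that mean. Most rows share the pattern of low met-2 libraries and a high lin-65 empty vector replicate 1, while msp-57, msp-51, msp-10, msp-56 and, at low levels, ssp-37, ssp-36 and the E03H12.10 copy of ssp-9 are among those that depart from it.

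Single copies did not keep a fixed proportion to each other, and the genes in this paragraph were chosen after their values were seen. The steady pair was ssp-10 and msp-81, near neighbours on IV, whose ratio lay between 0.868 and 1.61 in the 18 libraries. By contrast the ratio of msp-57 to msp-81 ran from 0.134 in lin-65 empty vector replicate 1 to 10.9 in met-2 empty vector replicate 2. In N2 worms the ratio of msp-57 to msp-81 was 4.89 to 6.10 on cco-1 RNAi and 1.01 to 2.50 on empty vector, and that of msp-10 to msp-81 was 0.622 to 0.777 on cco-1 RNAi and 0.210 to 0.540 on empty vector. The N2 groups did not overlap in either ratio. In met-2 worms on empty vector, msp-57 had 44 CPM and msp-51 had 7.37 CPM in replicate 3, the lowest of the group for both, while msp-142 had its highest value of the group there, 126 CPM against 70.1 and 87.1 CPM. Whether such shifts lie in the worms or in how reads of similar copies were assigned was not tested.

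**Figure D4:**
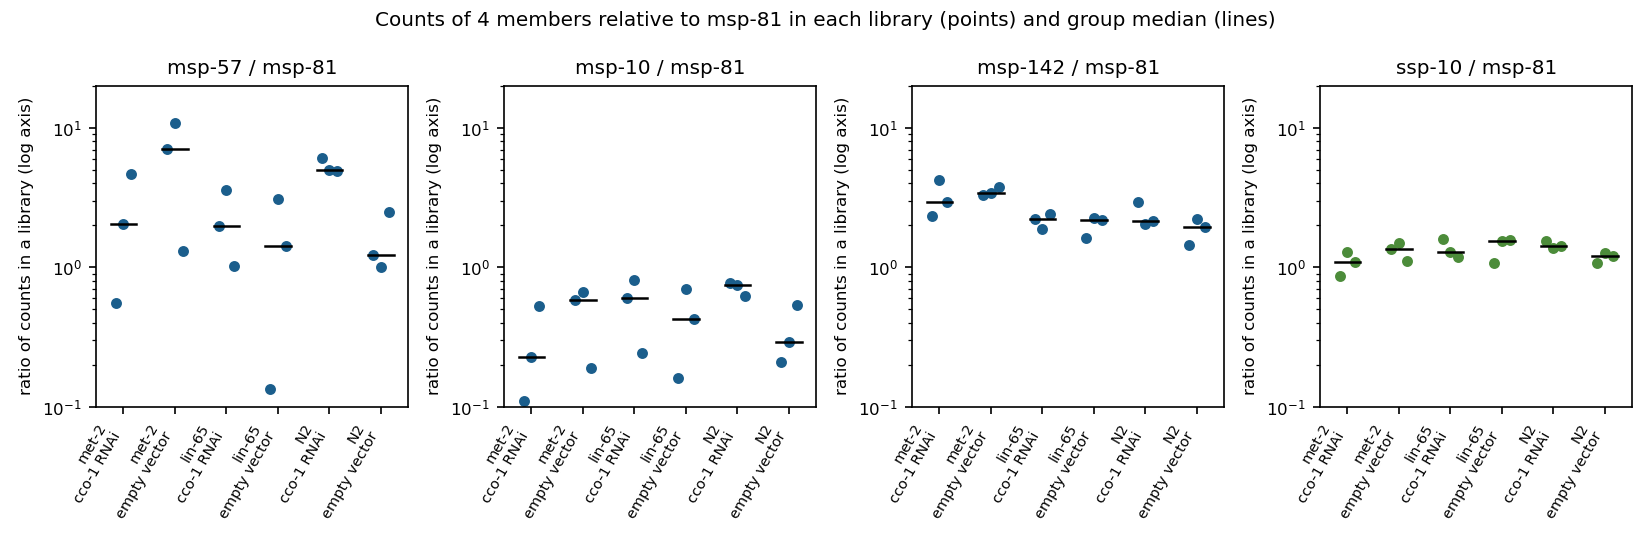
Ratio of msp-57, msp-10, msp-142 and ssp-10 to msp-81 within each library (y axis, log scale) by group (x axis); lines are group medians. Points for ssp-10 stay between 0.868 and 1.61, while those for msp-57 spread from 0.134 to 10.9.

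In N2 worms, the sum over all members was lower on cco-1 RNAi than on empty vector in every pair of libraries with the same replicate number, but 0 of 49 members passed the test on all 18 libraries. That sum was 2345, 3648 and 2418 CPM in replicates 1, 2 and 3 on cco-1 RNAi and 3804, 5412 and 3293 CPM in replicates 1, 2 and 3 on empty vector, so the groups overlapped while the ratio within a number was 0.617, 0.674 and 0.734. The median log2 fold change of members was -0.65 beside -0.01 over all genes, and 44 of 49 were negative. Of the 49, 36 (73.5%) were lower within all 3 pairs, beside 29.4% of all genes tested. The pairing was inferred from these same data. Members also moved together, with a median correlation of 0.911 to the median of the other members over the 18 libraries. The 36 are therefore not independent observations. Without regard to pairs, 15 did not overlap in the lower direction, beside 18.1% of all genes.

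With 0 calls among members, 0.841% of all genes were called in N2 by edgeR, and 8 members (16.3%) had an unadjusted p under 0.05, beside 17.9% of all genes. DESeq2 called 1 member lower, beside 216 of all 15110 genes. The smallest adjusted p was that of msp-49, with 35.6, 51.3 and 35.1 CPM on cco-1 RNAi and 80.6, 126 and 65.1 CPM on empty vector (-1.16 ± 0.32 (SE), adjusted p 0.113). Its groups did not overlap. A block for the replicate number gave 1 call in the fit of all libraries, where 114 of 15110 genes rose and 86 fell. In a fit of the 6 N2 libraries with that block, 27 of 48 members tested were lower (56.2%), beside 13.4% of all genes, and msp-49 had an adjusted p of 0.000445. That fit was chosen after the data were seen. Without the block the 6 N2 libraries gave 13 lower members of 48 (27.1%), beside 8.16% of all genes, and without lin-65 empty vector replicate 1 and met-2 cco-1 RNAi replicate 1 there were 12 of 49 (24.5%), beside 6.91%. Over all alternatives the adjusted p of msp-49 ran from 0.000445 to 0.354. The member with the largest positive value was msp-57 (249, 346 and 243 CPM on cco-1 RNAi, 203, 158 and 229 CPM on empty vector, log2 fold change 0.50 ± 0.58 (SE), adjusted p 0.649), the only member whose cco-1 RNAi libraries were all above its empty vector libraries, which held for 20.5% of all genes.

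In both mutants, 0 members passed the test for cco-1 RNAi against empty vector. In lin-65 the sum of the families averaged 3714 ± 381 CPM on cco-1 RNAi against 4822 ± 1824 CPM on empty vector (SD, n = 3 each), with a median log2 fold change of -0.42 and 0.715% of all genes called. The empty vector libraries had 6928, 3710 and 3829 CPM, and without replicate 1, the library with 2 strain labels, the median was 0.07. In met-2 the sum was 1267 ± 763 CPM on cco-1 RNAi and 1595 ± 327 CPM on empty vector, with a median of 0.00 and 1.11% of all genes called. Without met-2 cco-1 RNAi replicate 1 the median was -0.69, and over all libraries left out in turn it ran from -0.69 to 0.40. Its sign thus depended on the library left out.

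An unadjusted p under 0.05 was seen for 1 member in lin-65 (2.04%, beside 12.4% of all genes) and for 7 members in met-2 (14.3%, beside 9.8%), and DESeq2 called 0 members in either strain. The smallest adjusted p in lin-65 was that of ssp-37, with 0, 0.371 and 0.0557 CPM on cco-1 RNAi and 0, 1.98 and 1.36 CPM on empty vector (-2.80 ± 1.08 (SE), adjusted p 0.30), a gene near the limit of counting. In met-2 it was that of msp-40, with 50.7, 45.4 and 20.3 CPM on cco-1 RNAi and 96.5, 126 and 47.3 CPM on empty vector (-1.21 ± 0.38 (SE), adjusted p 0.203). The msp-40 groups overlapped by 1 library. The response in met-2 minus that in N2 had a median over members of 0.50, and the response in lin-65 minus that in N2 a median of 0.26, with 0 members and 0 of all 15110 genes called (0%) in either. In these differences 9 members (met-2, 18.4%) and 0 members (lin-65) had an unadjusted p under 0.05, beside 17.2% and 3.18% of all genes, and DESeq2 called 0 members. Without the 2 libraries that stood apart the median for met-2 was -0.02. The smallest adjusted p was 0.245 for msp-74 in met-2 (2.39 ± 0.73 (SE)) and 0.999 for ssp-37 in lin-65 (-2.07 ± 1.41 (SE)).

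**Figure D5:**
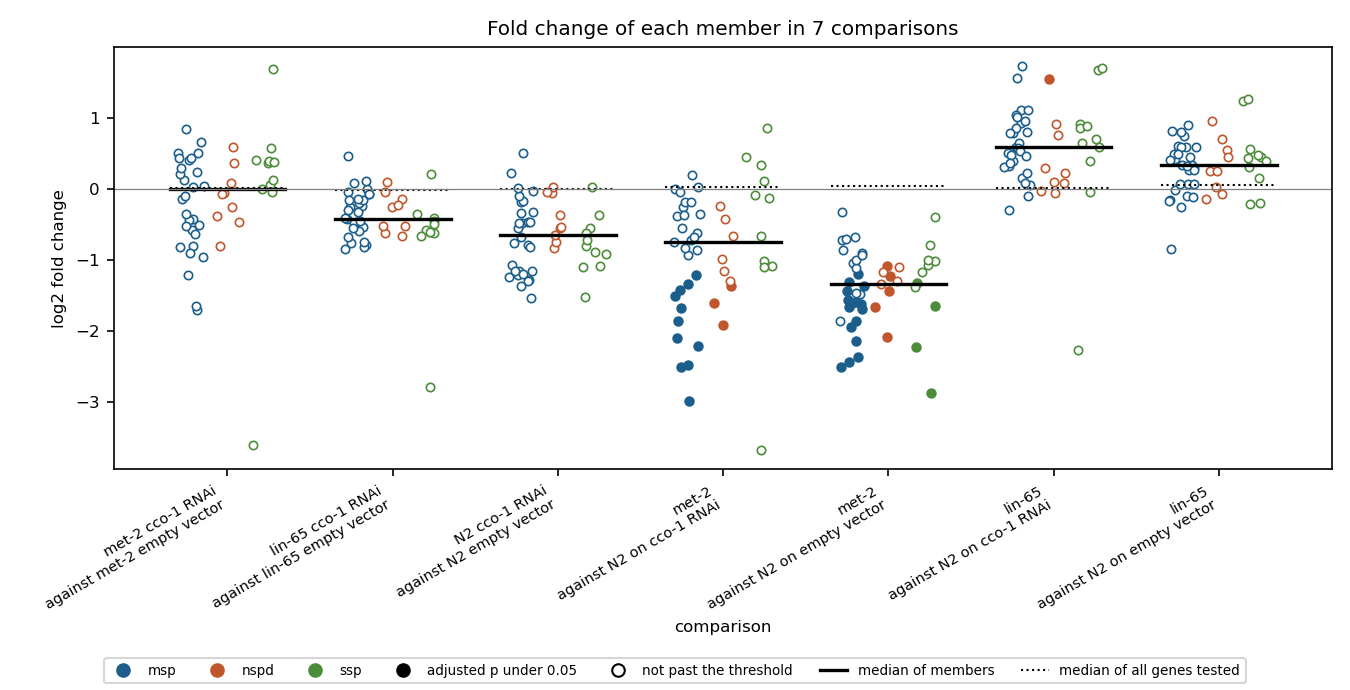
Log2 fold change of each member tested (y axis) in 7 comparisons (x axis), by family; filled points passed an adjusted p of 0.05, solid lines are the median of members and dotted lines that of all genes tested. Filled points are in both met-2 against N2 comparisons (14 on cco-1 RNAi and 25 on empty vector) and there is 1, nspd-9, in lin-65 against N2 on cco-1 RNAi.

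Between lin-65 and N2 the median over members was above 0 on both foods. On cco-1 RNAi the families summed to 3714 ± 381 CPM in lin-65 worms, against 2804 ± 732 CPM in N2 (SD, n = 3 each), with a median log2 fold change of 0.59. The ssp libraries did not overlap, at 397 to 422 CPM in lin-65 worms, against 197 to 310 CPM in N2. By edgeR, 1 of 49 members rose and 0 fell, beside 0.635% of all genes that rose, and 19 members did not overlap in the higher direction, beside 14% of all genes. The called gene was nspd-9, the lowest nspd gene that passed the filter, with 16.6, 20.3 and 16.8 CPM in lin-65 worms, against 5.73, 7.64 and 5.11 CPM in N2 (1.55 ± 0.31 (SE), adjusted p 0.0136). Its call was lost without N2 cco-1 RNAi replicate 1, N2 cco-1 RNAi replicate 3 or lin-65 cco-1 RNAi replicate 2 (adjusted p 0.0817, 0.111 and 0.0649), and over all alternatives its adjusted p ran from 0.000228 to 0.111. Without the 2 libraries that stood apart, 7 of 49 members rose (14.3%), beside 1.68% of all genes, and in a fit of the 6 libraries compared alone 10 of 47 rose (21.3%), beside 1.65%.

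On empty vector the families summed to 4822 ± 1824 CPM in lin-65 worms, against 4170 ± 1106 CPM in N2 (SD, n = 3 each), with a median log2 fold change of 0.33. By edgeR 0 of 49 members were called, beside 1.42% of all genes, 3 (6.12%) had an unadjusted p under 0.05, beside 10.3% of all genes, and DESeq2 called 0. Without lin-65 empty vector replicate 1 and met-2 cco-1 RNAi replicate 1 the median was -0.14. The smallest adjusted p was again that of nspd-9, with 24.9, 14.6 and 16.3 CPM in lin-65 worms, against 8.30, 11.8 and 8.60 CPM in N2 (0.95 ± 0.30 (SE), adjusted p 0.169), whose groups did not overlap. The comparisons of each mutant with N2 use the same N2 libraries as the N2 response to cco-1 RNAi, so they are not independent of it.

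Other sperm genes, such as those for sperm activation, fertilisation and the MSP cytoskeleton's partners, were read from a list of 44 genes outside the 3 families, of which 43 were tested. Of all genes tested in met-2 against N2, 15.3% fell and 15.3% rose on empty vector, and 9.59% fell and 11.2% rose on cco-1 RNAi, and these shares are the background for this and the further lists. In met-2 against N2 on empty vector 23 of them fell and 0 rose (53.5%), with a median of -1.14. Among these were msd-2, for an MSP-domain protein (-2.04 ± 0.33 (SE), adjusted p 0.000592), spe-18 (-1.32) and smz-2, for a sperm PDZ-domain protein (-1.45). On cco-1 RNAi 9 of 43 fell (20.9%), among them spe-11, whose protein is carried into the egg by the sperm (-1.43, adjusted p 0.0607 in a fit of the 6 libraries compared alone), spe-49 (-1.89) and sss-1 (-2.12). Without both libraries that stood apart 27 of 43 fell on cco-1 RNAi, beside 15.8% of all genes, with a median of -1.03. In N2 on cco-1 RNAi 0 of 43 passed, with a median of -0.30.

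Genes of the germline at large and of oocytes fell in met-2 as well. Of 22 germ granule and meiosis genes, 12 fell on empty vector (54.5%, median -0.63) and 10 on cco-1 RNAi (45.5%, median -0.62), among them zim-3, for a chromosome pairing protein (-1.31), and glh-2, for a germ granule helicase (-1.32), on empty vector. Of 20 oocyte and eggshell genes, 11 fell and 1 rose on empty vector (median -1.16) and 15 fell on cco-1 RNAi (median -1.65). Among these on empty vector were egg-2 (-1.81), for an egg surface protein, cbd-1 (-1.65), for a chitin-binding eggshell protein, and chs-1 (-1.44), for the chitin synthase that makes the eggshell. Without both libraries that stood apart, 14 of the 22 and 17 of the 20 fell on cco-1 RNAi, beside 15.8% of all genes. No difference between the lists was tested. Of 13 genes that set the sex of germ cells, 1 fell on empty vector, and 1 rose and 1 fell on cco-1 RNAi, each 7.69% and below the shares of all genes. Here fog-2, needed for sperm in hermaphrodites, fell in met-2 on empty vector (-0.77 ± 0.27 (SE), adjusted p 0.0365) and 0 rose, while on cco-1 RNAi fog-1, needed for the sperm fate, rose (1.07 ± 0.24 (SE), adjusted p 0.00478) and fem-3, which promotes it too, fell (-1.09 ± 0.35 (SE), adjusted p 0.0332). The call on fog-2 was lost without any 1 of the 3 met-2 empty vector libraries and without N2 empty vector replicate 1 or 2 (adjusted p 0.0711 to 0.16). On cco-1 RNAi that on fem-3 was lost without replicate 1 or 3 of met-2 and without replicate 2 or 3 of N2 (adjusted p 0.0680 to 0.124). In a fit of the 6 libraries compared alone, fog-1 and fem-3 had adjusted p of 0.0518 and 0.144 on cco-1 RNAi, and with no filter on low counts fog-2 had 0.0569 on empty vector. Without both libraries that stood apart, 2 of 14 such genes rose and 2 fell on cco-1 RNAi, beside 12.9% of all genes that rose and 15.8% that fell.

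A list of 18 genes linked to MSP signalling was also read. It includes ephrin genes and is not limited to genes that receive or pass on the signal in oocytes and sheath cells. Of the 18, 6 rose and 2 fell in met-2 against N2 on empty vector (median 0.41), and 1 rose and 5 fell on cco-1 RNAi (median -0.17). As shares, 33.3% rose and 11.1% fell on empty vector, and 5.56% rose and 27.8% fell on cco-1 RNAi. Without both libraries that stood apart, 3 rose and 5 fell on cco-1 RNAi (median 0.05), beside 12.9% of all genes that rose and 15.8% that fell. The ephrin gene efn-2, whose product is a ligand of VAB-1, had 19.9, 17.0 and 25.7 CPM in met-2 and 4.45, 4.61 and 6.15 CPM in N2 on empty vector (2.03 ± 0.24 (SE), adjusted p 6.2e-05). It was higher in every met-2 library. The oocyte innexin gene inx-22 (-1.27 ± 0.25 (SE), adjusted p 0.00216) and oma-2, for an oocyte maturation protein (-1.57 ± 0.35 (SE), adjusted p 0.00444), fell. In N2 worms, efn-2 was the 1 gene of the list called on cco-1 RNAi, with 11.8, 10.9 and 10.4 CPM on cco-1 RNAi and 4.45, 4.61 and 6.15 CPM on empty vector (1.11, adjusted p 0.0363).

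Some markers of other cells and of stage also differed between met-2 and N2, and their part in the sperm genes' values was not tested. Of 9 genes of adult soma, mostly yolk genes, 6 fell on empty vector, with summed levels of 1537 to 3092 CPM in met-2 and 4748 to 10231 CPM in N2, and 9 fell on cco-1 RNAi, with 141 to 359 CPM in met-2 and 3251 to 7975 CPM in N2. Of 14 larval molting genes, 6 rose on empty vector (42.9%), with sums of 2496 to 2946 CPM in met-2 and 971 to 2437 CPM in N2, and 1 rose on cco-1 RNAi (7.14%, below the share of all genes). Of 13 body wall muscle genes, 4 rose (30.8%) and 1 fell (7.69%) on empty vector and 0 rose and 1 fell (7.69%) on cco-1 RNAi, so the shares that fell were below those of all genes. Of 9 intestine genes, 4 rose on cco-1 RNAi (44.4%) and 3 on empty vector (33.3%). Among the 3 was ges-1 (0.68, adjusted p 0.0499), whose call was lost in 15 of 24 alternatives (adjusted p up to 0.173). Without both libraries that stood apart, the counts in met-2 on cco-1 RNAi were 9 adult genes lower and 1 molting gene higher. In that fit 2 muscle genes were higher and 1 lower, and 4 intestine genes were higher. Genes of adult soma also fell in lin-65 against N2, 5 of 9 on empty vector and 6 of 9 on cco-1 RNAi. Of all 15110 genes, 53 and 72 fell there. The adult genes summed to 1741 to 2553 CPM in lin-65 on empty vector and 339 to 985 CPM on cco-1 RNAi. Of the 49 sperm family members tested, 0 fell in lin-65 against N2 on either food. A link between adult and sperm genes was not tested. Male-specific genes were low in every group: of 9 genes 4 were tested, the male neuron gene cwp-4 rose in met-2 on empty vector (1.77, adjusted p 0.0403) and the seminal fluid protease inhibitor gene swm-1 in met-2 on cco-1 RNAi (1.62, adjusted p 0.0115). The call on cwp-4 was lost without any 1 of the 6 libraries compared or N2 cco-1 RNAi replicate 1 (adjusted p 0.0501 to 0.119), and that on swm-1 without replicate 1 of met-2 (0.106) or replicate 2 of N2 (0.0571) on cco-1 RNAi, or in a fit of the 6 libraries compared alone (0.0812). Their sum was 28.5 to 80.7 CPM in met-2 and 12.1 to 18.2 CPM in N2 on cco-1 RNAi, and 21.4 to 32.6 CPM in met-2 and 16.4 to 19.9 CPM in N2 on empty vector. The male neuron marker cwp-3 had 0 counts in both met-2 groups and in lin-65 on empty vector and N2 on cco-1 RNAi. On each food the sum of the 9 male genes was thus higher in every met-2 library than in the N2 libraries. It is a low sum of few genes, and its bearing on the sperm genes was not tested.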

How the data were processed

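PolyA RNA from whole L4 worms was sequenced from ScriptSeq v2 libraries, per the labels' protocols. The authors deposited raw read counts per gene model, 1 column per library (0 per-sample columns left unused). Bowtie 0.12.7 and DESeq are named in the submitters' processing notes. No source used here gives the genome build, the annotation, the counting program or how strand was treated. Gene models were matched by sequence name, isoform letter stripped, to the WBcel235 annotation (Ensembl 115): 20071 matched and 434 did not. Chromosomes, exon lengths and neighbours come from that annotation, with overlapping exons of a gene counted once.

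Libraries were grouped by title. Genes were filtered with filterByExpr (15110 kept) and fitted over 18 libraries with edgeR 4.0.16 in R 4.3.3 (TMM, 6 group means, robust quasi-likelihood test, two-sided, Benjamini-Hochberg threshold 0.05). There were 9 comparisons. SE is the log2 fold change divided by the root of F. The procedure was tested on simulated data. Replicate pairs differed beyond counting noise (chi-square per degree of freedom at least 10.4 in 18 pairs). Floors of 3 counts cover counting error only.

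In N2, the deviations of libraries with the same number correlated across genes (r 0.126 to 0.357), above 0.1 in every pair, and were taken as paired. In the first pair the margin was small: N2 cco-1 RNAi replicate 1 had 0.126 with its own number and 0.120 with N2 empty vector replicate 3. The numbers come from the titles, which do not say what a number marks. For some libraries, such as N2 empty vector replicate 2, the deposited name carries another number than the title. Alternatives were RLE factors, DESeq2 1.42.0, no filter, a replicate block, only the groups compared, 16 libraries, and each library left out.

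For levels, the 3 highest genes of each family and the lowest that passed were named. For comparisons, the 3 largest and 3 smallest called changes were named, or the smallest p where none was called. Members and lists were chosen with earlier results of these data known. Other genes were named after their values were seen.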

Additional observations from a re-analysis of the deposited data

How the results depend on the processing

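The direction of the met-2 against N2 difference on empty vector held in the median over members in all 24 alternatives. The number of members called did not hold. With only the groups compared it was 13 in N2 on cco-1 RNAi (main value 0), 43 for met-2 against N2 on empty vector (25), 10 for lin-65 against N2 on cco-1 RNAi (1) and 7 for met-2 against N2 on cco-1 RNAi (14), beside 8.16%, 22.3%, 1.65% and 4.12% of all genes called in those directions. With 16 libraries it was 12, 44, 7 and 35 in that order, beside 6.91%, 23.7%, 1.68% and 15.8% of all genes. For cco-1 RNAi in met-2 it was 2 (0), beside 1.2% of all genes that fell. DESeq2 called 1 member in N2 on cco-1 RNAi and 2 in lin-65 against N2 on cco-1 RNAi. Of all 15110 genes it called 332 higher and 216 lower in N2, and 162 higher and 161 lower in lin-65 against N2. With 16 libraries the median was -0.68 for cco-1 RNAi in met-2, -1.41 for met-2 against N2 on cco-1 RNAi and -0.024 for the response in met-2 minus that in N2. The cause was not tested.

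The replicate block gave 1 call in N2 on cco-1 RNAi, 1 for cco-1 RNAi in met-2 and 2 in lin-65 against N2 on cco-1 RNAi, and 27 in the 6 N2 libraries alone. Of all 15110 genes, 114 rose and 86 fell in N2 and 103 rose and 104 fell in met-2. In lin-65 against N2, 117 rose and 105 fell. In the 6 N2 libraries alone, 13.4% of all genes fell. The block moved no other count of members by more than 1.5 times. Outside N2 not every same-number correlation was over 0.1, so the numbers were not taken as pairing the libraries. They were -0.055 to 0.201 in lin-65 and -0.282 to 0.208 in met-2, where 3 of 6 and 2 of 6 libraries correlated best with their own number. Between lin-65 and N2 they were 0.098 to 0.132 on cco-1 RNAi, where 6 of 6 did so, and 0.078 to 0.341 on empty vector, where 5 of 6 did so, a hint of pairing from the data and not the design. Between met-2 and N2 they were -0.098 to 0.130 (2 of 6) and -0.105 to -0.015 (0 of 6).

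With each library left out in turn, calls ran from 0 to 2 in N2 on cco-1 RNAi, from 12 to 37 for met-2 against N2 on empty vector, from 8 to 28 for met-2 against N2 on cco-1 RNAi and from 0 to 2 for lin-65 against N2 on cco-1 RNAi. Calls over all genes moved too. For met-2 against N2 on empty vector, 1263 of 15295 genes fell in the fit with 12 and 2945 of 15274 (19.3%) in that with 37. On cco-1 RNAi, 859 of 15433 fell in the fit with 8 and 1676 of 15274 (11%) in that with 28. Without met-2 cco-1 RNAi replicate 1, the 2 calls in N2 stood beside 1.54% of all genes that fell. The 2 in lin-65 against N2 stood beside 0.858% that rose. Medians over members ran from -0.69 to 0.40 for cco-1 RNAi in met-2 and from -1.40 to -0.41 for met-2 against N2 on cco-1 RNAi.

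Single genes reversed when a library was left out. For met-2 against N2 on empty vector, msp-57 ran from -1.03 to 0.12. On cco-1 RNAi, msp-142 ran from -0.77 to 0.15, msp-32 from -1.04 to 0.46, nspd-1 from -0.98 to 0.072, ssp-35 from -0.68 to 0.13, the E03H12.10 copy of ssp-9 from -0.55 to 0.60 and the seminal fluid protease gene try-5 from -0.14 to 1.88. With 16 libraries that ssp-9 copy had -0.55 and try-5 had -0.14. None of these reversed values was called. With 16 libraries nspd-1 was lower on cco-1 RNAi (-0.98, adjusted p 0.0112).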
